A study of Rattus norvegicus with 8 samples.

Results

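The genes described here encode the mitochondrial respiratory chain and the ATP synthase. They were taken from an array of rat transcripts by symbol: every probe set annotated with a single symbol beginning with Nduf, Sdh, Uqcr or Atp5, or with Cox followed by a digit from 4 to 8, and the symbols Cycs and Cyc1. The rule found 102 probe sets for 56 genes. Of 8740 probe sets on the array, 7006 carried a single symbol, and these named 4736 genes. Each gene was represented by its probe set with the highest mean signal. The 56 genes were grouped by symbol. Complex I held 27, complex II 2, complex III 4, complex IV 13 and the ATP synthase 10. The groups also held genes that are not subunits, such as the assembly factor Sdhaf2 and the pseudogene Cox6c-ps1. No member was cytochrome c, because the probe sets for Cycs carried several symbols. With those for Cycs, 7 probe sets were left out for that reason.

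RNA was measured on 8 arrays. The cells were primary smooth muscle cells of the pulmonary artery, which grew out of explants of adult Sprague-Dawley rats after the endothelium and adventitia had been removed. Cells were untreated (control) or exposed for 1, 2 or 4 h to S-nitrosoglutathione (GSNO), a compound that releases nitric oxide, and each of the 4 groups had 2 arrays, numbered 1 and 2. The series design gives the dose as 100 μmol/L and the sample protocol gives 100 mmol/L, and neither was taken as settled. The untreated cells have no stated time, so time in culture and GSNO cannot be told apart. The design speaks of 2 independent cell preparations but does not tie them to the array numbers. Were both arrays of a group from the same preparation, the spread behind the p-values would be technical.

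Complexes I to IV pass electrons from NADH and succinate to oxygen. Complexes I, III and IV, but not II, pump protons across the inner mitochondrial membrane. The ATP synthase uses the returning protons to make ATP. Nitric oxide is known to compete with oxygen at complex IV and to slow respiration reversibly, and S-nitrosothiols can modify thiols of complex I. Most subunits are encoded in the nucleus. Their promoters are known for binding sites of NRF1 and of ETS factors such as NRF2/GABP. The arrays measured transcript levels, not protein amount or respiration.

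The deposited values were signals on a linear scale, 1 per probe set. Per array, the median signal was between 100.0 and 141 and was lowest on the 4 h array numbered 1, while the trimmed mean lay near 501 on all 8. The ratio of 3′ to 5′ signal for 2 housekeeping transcripts, a sign of RNA integrity, ranged from 0.926 to 1.11 for beta-actin and from 0.934 to 1.08 for GAPDH. Arrays with the same number deviated from their group means together, with correlations between 0.387 and 0.569, and the numbers were scanned in separate runs. The array records name 3 experiments: control and 2 h arrays numbered 1 in the first, 1 h and 4 h arrays numbered 1 in another, and all arrays numbered 2 in the last. Within number 1, the recorded experiment and 4 h or 1 h against control therefore cannot be told apart. Smooth muscle markers, Acta2 and Tagln among them, passed the filter on low signal for 7 of 8 genes, with a summed signal of 46566 to 74740 per array. Fibroblast and adventitia markers passed for 6 of 6 genes, with a summed signal of 14354 to 20168, so transcripts of that list were present as well. Endothelial markers passed for 2 of 4 genes (summed signal 142 to 365), and cardiac and skeletal muscle markers for 8 of 12 (739 to 1557). Macrophage and leukocyte markers passed for 3 of 6 genes (455 to 789), and lung epithelium markers for 2 of 7 (348 to 637). Sums over different probe sets do not rank the cell types, and the part of other cells in the results was not tested. All 56 members passed the filter, among 5877 probe sets kept.

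Log2 fold changes were tested with limma over all 5877 kept probe sets, with Benjamini-Hochberg adjustment and a threshold of 0.05. A member that passed is called changed. In the fit without a block for the array number, 0 of 56 members changed at 1 h, 2 h or 4 h, while 0.527%, 0.97% and 1.53% of all kept probe sets did. At an unadjusted p below 0.05 the members numbered 1 at 1 h (background 3.01%), 3 at 2 h (background 6.13%) and 7 at 4 h (background 11.1%). With the array number as a block, 0 members changed at 1 h (background 1.34%), 1 was higher at 2 h (background in that direction 2.19%) and 4 were higher and 0 lower at 4 h. The matching background at 4 h was 4.25% higher and 3.68% lower, so the share of members called was 7.14% against 7.93% of all kept probe sets. The members were thus called about as often as other transcripts. Those called were Ndufa5, Ndufb1, Atp5f1d and Atp5if1.

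Limma's F test over the 3 times called 0 members without a block (background 1.14%), where 2 had an unadjusted p below 0.05 (background 7.84%), and 2 with it, Ndufa5 and Atp5if1 (background 5.94%). With the experiment named in the array records as block, 0 members were called at 1 h (background 0.681%) and only Ndufa5 at 2 h (background 2.59%), at 4 h (background 2.81%), for 4 h against 1 h (background 3.42%) and in the F test (background 3.27%). Between the array numbers, all 4 arrays numbered 1 lay above all 4 numbered 2 for 7 members (background 8.2%), and the reverse held for 5 (background 12.7%).

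The promoters of Ndufa5 and Atp5if1 are shown because these members had the largest differences at 4 h and the lowest adjusted p-values among the 4 called. Each line holds the 250 bases before the gene's start, 5′ to 3′ on the gene's strand, from RefSeq on build GRCr8. Capitals in Ndufa5 mark a match to the NRF1 motif (GCGC, then any base, then TGCGC), read on the other strand, and capitals in Atp5if1 mark a CCAAT box, read on the other strand.
Ndufa5, GRCr8 chr4:53971236-53971485, minus strand: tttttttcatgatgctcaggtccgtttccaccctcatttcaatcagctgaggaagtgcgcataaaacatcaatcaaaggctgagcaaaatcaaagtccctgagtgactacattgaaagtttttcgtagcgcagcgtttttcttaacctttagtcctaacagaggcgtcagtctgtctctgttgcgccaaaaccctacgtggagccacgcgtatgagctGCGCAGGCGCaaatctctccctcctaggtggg
Atp5if1, GRCr8 chr5:150026678-150026927, minus strand: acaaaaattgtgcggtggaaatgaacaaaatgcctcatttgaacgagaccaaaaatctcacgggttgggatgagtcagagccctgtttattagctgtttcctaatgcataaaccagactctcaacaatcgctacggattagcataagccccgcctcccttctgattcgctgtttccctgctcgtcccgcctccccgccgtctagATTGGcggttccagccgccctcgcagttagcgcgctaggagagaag

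The match in Ndufa5 lay 32 to 23 bases before the start, and that in Atp5if1 lay 46 to 42 bases before it. Motifs were searched on both strands of the same 250 bases for the 47 members and the 33469 genes in the promoter table. The other members, Cyc1 and Atp5pd among them, had no promoter in that table. The shares for all promoters cover every gene in it, not only those on the array or past the filter. The NRF1 motif stood in 5 of the 47 members (Atp5po, Ndufa5, Ndufs6, Ndufv3 and Sdha), or 10.6%, against 3.75% of all promoters. The ETS motif CCGGAAG stood in 9 of 47, or 19.1%, against 7.27%, and the antioxidant response element TGACNNNGC also in 9, or 19.1%, against 10.1%. The cAMP response element TGACGTCA was found in 2 members (4.26% against 1.59%), and CCAAT in 17 (36.2% against 34.0%). Among the 5 members with the NRF1 motif, Ndufa5 was 1.67 higher at 4 h on the log2 scale, while Ndufv3 was at -0.38, Sdha at -0.16, Atp5po at -0.02 and Ndufs6 at 0.05. A match describes the sequence and does not show binding.

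Complex I takes electrons from NADH, and its subunits divide into a catalytic core and many accessory subunits around it. Ndufa5, an accessory subunit of the arm that faces the matrix, stood out among the 27 genes. Its signal was 1780 and 1079 on control arrays 1 and 2, 2281 and 1335 at 1 h, 3387 and 2660 at 2 h, and 4535 and 4358 at 4 h. Both 2 h arrays and both 4 h arrays lay above both controls, and the 1 h arrays overlapped the controls. The mean rose from 1429 ± 496 (SD, n = 2) to 4446 ± 125 (SD, n = 2), a ratio of 3.11. The log2 fold change at 4 h was 1.67 with an SE of 0.34, and limma's adjusted p was 0.0651 without a block and 0.000666 with the array number as block. At 2 h it was 1.10, with an adjusted p of 0.407 without and 0.0127 with the block. At 1 h it was 0.33, and no fit called it. Within the arrays numbered 1 the difference at 4 h was 1.34, and within those numbered 2 it was 1.99.

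The call of Ndufa5 at 4 h in the blocked limma fit held in 8 of 8 fits that each left out 1 array, with adjusted p between 0.000505 and 0.0118. Its 2 h call held in 5 of 8, and was lost without either 2 h array or control array 2 (highest adjusted p 0.162). With the experiment named in the array records as block, limma's adjusted p was 0.0469 at 2 h and 0.0178 at 4 h. Only 1 probe set on the array carried the symbol Ndufa5, so no other probe set could be set beside it. It also passed limma's moderated F test over the 3 times with the block, with an adjusted p of 0.00202.

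Ndufb1, a small accessory subunit of the membrane arm, was the other complex I gene called. Its signal was 986 and 675 in control, 856 and 901 at 1 h, 987 and 953 at 2 h, and 1534 and 1348 at 4 h. The groups up to 2 h overlapped the controls, and both 4 h arrays lay above all other arrays. The log2 fold change at 4 h was 0.80 (SE 0.25), with limma's adjusted p 0.224 without and 0.0361 with the block. The call held in 3 of 8 fits that left out an array, and the adjusted p reached 0.260 in the others. It was lost without either 4 h array, either 2 h array or control array 2.

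**Figure D1:**
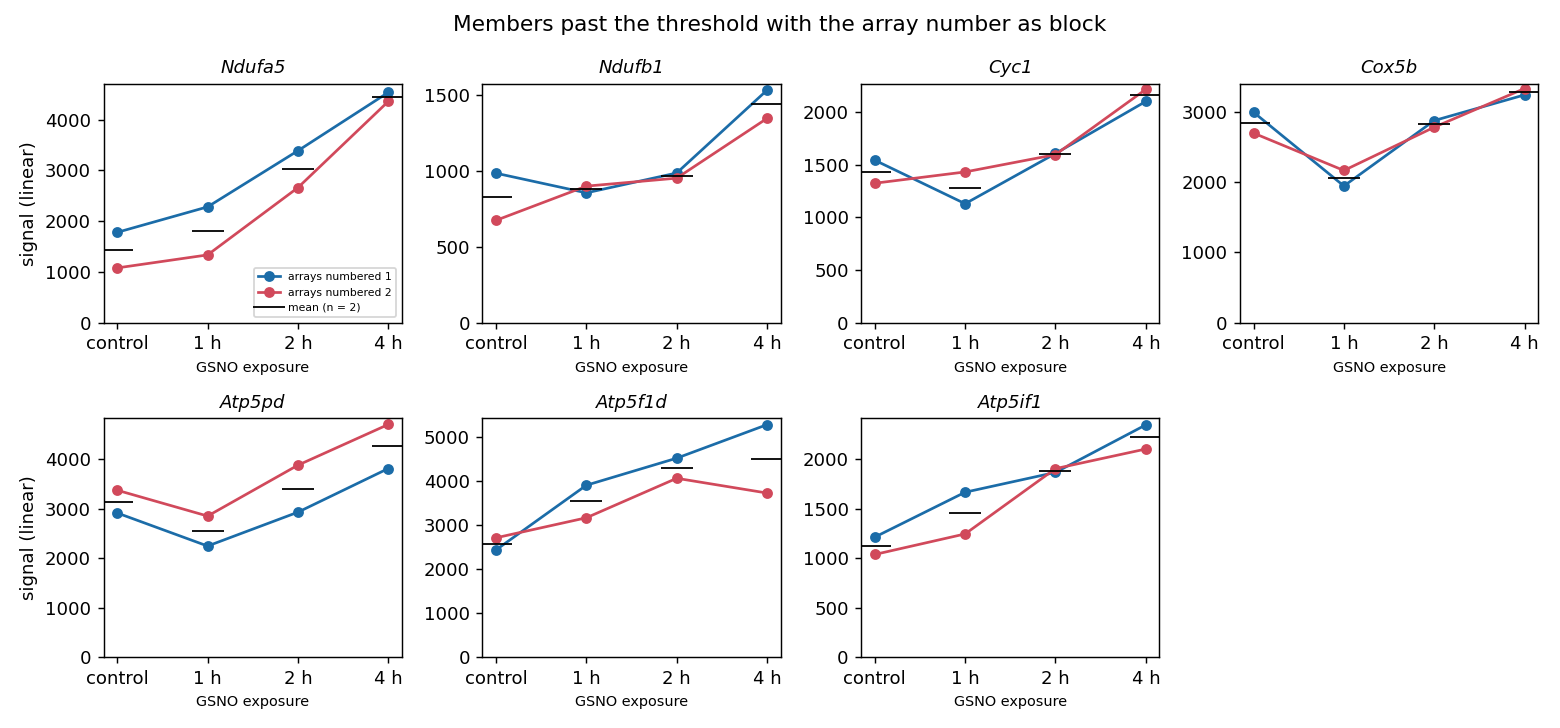
Signal (linear scale) on each array for the 7 members past the threshold in the fit with the array number as block, by GSNO exposure. Lines join arrays of the same number, and black bars are means of 2 arrays. Ndufa5 rose from 1780 and 1079 in control to 4535 and 4358 at 4 h on arrays 1 and 2, and Cox5b was lowest at 1 h.

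Among the other complex I genes the differences were small and not called. Both 4 h arrays lay above both controls for 12 of the 27, namely Ndufa4, Ndufa5, Ndufa6, Ndufa9, Ndufab1, Ndufb1, Ndufb2, Ndufb8, Ndufb9, Ndufb10, Ndufs1 and Ndufs7 (background 13.4%), and below both for 1, Ndufc2 (background 27.5%). Ndufs7, a core subunit that holds an iron-sulfur cluster, gave 997 and 996 in control, 1039 and 1011 at 1 h, 1138 and 1305 at 2 h, and 1551 and 1527 at 4 h. Its log2 difference was 0.62 at 4 h, and limma's adjusted p with the block was 0.0576, just outside the threshold. It was not called in the main fit without a block either. Ndufab1, the mitochondrial acyl carrier protein, gave 1172 and 1011 in control and 1835 and 1514 at 4 h. That is a log2 difference of 0.60, with limma's adjusted p of 0.0600 with the block. Another kept probe set of Ndufab1 was at 0.14. Ndufa9 had a difference of 0.64, which lay mainly in 1 array: 1197 and 620 at 4 h against 599 and 499 in control.

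Ndufc2 and Ndufv3 were at the low end of complex I. Ndufc2, an accessory subunit of the membrane arm, gave 1952 and 1713 in control and 1262 and 1518 at 4 h, a log2 difference of -0.40 that was not called (limma's adjusted p 0.252 with the block). Ndufv3 was at -0.38, and its 4 h arrays (1107 and 1676) overlapped its controls (1537 and 2067). Ndufa4l2, a relative of Ndufa4 known to be induced in hypoxia, gave 255 and 185 in control and 210 and 542 at 1 h. The 1 h difference of 0.59 came from array 2 alone, and without that array it was -0.05. Ndufa4, now known as a subunit of complex IV although its name places it here, was at 0.35 at 4 h, with 3034 and 2118 in control and 3352 and 3110 at 4 h. The median over complex I was -0.15 at 1 h, 0.07 at 2 h and 0.16 at 4 h.

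Complex II links the Krebs cycle to the chain and was represented by its flavoprotein subunit Sdha and the assembly factor Sdhaf2. Sdha gave 1311 and 1604 in control, 1523 and 1705 at 1 h, 1188 and 1505 at 2 h, and 1101 and 1523 at 4 h. Sdhaf2, which helps attach the flavin to Sdha, gave 1402 and 2018 in control and 1244 and 1460 at 4 h. The 4 h arrays overlapped the controls for both genes, and the log2 differences of -0.16 and -0.32 were not called.

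Complex III passes electrons from ubiquinol to cytochrome c. Cyc1, its cytochrome c1 subunit, gave 1544 and 1325 in control, 1131 and 1433 at 1 h, 1608 and 1597 at 2 h, and 2103 and 2217 at 4 h. Both 4 h arrays lay above all other arrays. The log2 difference from control at 4 h was 0.59 (SE 0.23), with limma's adjusted p 0.0903 with the block, and was not called. Uqcrfs1, the Rieske iron-sulfur protein, was at 0.09 at 4 h. Uqcr11, a small subunit, and Uqcrc2, a core protein, were at -0.14 and -0.19, with arrays that overlapped the controls. Other kept probe sets had the opposite sign at 4 h, at -0.32 and -0.06 for Uqcrfs1 and at 0.14 for Uqcr11.

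Complex IV reduces oxygen and is the site where nitric oxide binds. Of its 13 genes here, 0 were called against control without a block, with the array number or with the recorded experiment as block. At 4 h the background was 1.53%, 7.93% and 2.81% in these fits, so a count of 0 among 13 is near it. The ubiquitous subunit Cox4i1 gave 13313 and 10135 in control and 14946 and 5356 at 4 h. Its 2 arrays at 4 h thus lay on either side of the controls, and the difference of -0.38 was 0.36 without array 2 and -1.11 without array 1. The other kept probe sets of Cox4i1 differed in sign at 4 h, at 0.21 and -0.94. Cox4i2, the isoform known to be expressed in lung and to replace Cox4i1 in low oxygen, gave 429 and 411 in control, 584 and 848 at 1 h, 528 and 488 at 2 h, and 382 and 571 at 4 h. Both 1 h arrays lay above both controls, with a log2 difference of 0.72 (SE 0.29). It was not called, with limma's adjusted p of 0.445 with the block, and the 4 h arrays overlapped the controls.

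The other paired isoforms of complex IV were not called either. The liver-type Cox6a1 was at 0.19 at 4 h, and the heart- and muscle-type Cox6a2 at -0.18. Cox8a was at 0.15, with its other kept probe sets between -1.03 and 0.31. The muscle-type relative Cox8b, whose signal fell below the array's 40th percentile on 5 of 8 arrays, was at 0.41. The pseudogene Cox6c-ps1 was as weak, below that percentile on 5 arrays, with signals between 8.59 and 123. Cox7a2l, which joins complexes III and IV into supercomplexes, gave 4396 and 3054 in control and 5051 and 4629 at 4 h, a difference of 0.40. Cox5a, Cox6b1, Cox6c and Cox7b lay between -0.09 and 0.11 at 4 h. Another kept probe set of Cox6c was at -1.25 and another of Cox6b1 at 0.52, and neither was called.

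The ATP synthase has a catalytic head, a stalk and a membrane rotor, and its inhibitory factor, encoded by Atp5if1, binds the head and blocks ATP hydrolysis when the proton gradient falls. Atp5if1 gave 1213 and 1038 in control, 1666 and 1245 at 1 h, 1865 and 1903 at 2 h, and 2345 and 2101 at 4 h. Every GSNO array lay above both controls, and both 4 h arrays above all others. The mean rose from 1126 ± 124 (SD, n = 2) to 2223 ± 172 (SD, n = 2), and the log2 fold change at 4 h was 0.97 (SE 0.24). Limma's adjusted p was 0.109 without and 0.00760 with the block. The call held in 6 of 8 fits that left out an array and was lost without control array 1 or control array 2 (highest adjusted p 0.0579).

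The probe set of Atp5if1 carries the array maker's mark for a family of similar sequences, so related transcripts may add to its signal. The 3 other kept probe sets of the gene were at 0.49, 0.08 and 1.35 at 4 h, and none was called. The probe set at 0.49 gave 756 and 757 in control and 1109 and 1038 at 4 h, and the probe set at 1.35 was weak on control array 1, with a signal of 11.4.

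Atp5f1d, the delta subunit of the central stalk, gave 2435 and 2709 in control, 3899 and 3162 at 1 h, 4511 and 4056 at 2 h, and 5270 and 3722 at 4 h. Every GSNO array lay above both controls. The log2 fold change was 0.45 at 1 h, 0.73 at 2 h and 0.78 at 4 h (SE 0.26), and limma's adjusted p at 4 h was 0.252 without and 0.0254 with the block. The 4 h call held in 4 of 8 fits that left out an array, with an adjusted p of up to 0.265, and was lost without control array 1, either 2 h array or 4 h array 1. The other probe set of Atp5f1d was at 0.59 at 4 h and was not called. With the recorded experiment as block, limma's adjusted p was 0.228, and those of Atp5if1 and Ndufb1 were 0.0863 and 0.109.

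The alpha, beta and gamma subunits showed no such difference. Atp5f1b, the beta subunit that makes ATP, gave 5430 and 5885 in control and 5611 and 4902 at 4 h, a log2 difference of -0.11. Atp5f1a, the alpha subunit, was at -0.19, with both 4 h arrays below both controls, and Atp5f1c, the gamma subunit, was at -0.25. None was called. The stator subunit Atp5po, which joins head and membrane part, was at -0.02 and differed more between array numbers than between groups, with 4704 and 3786 in control and 5448 and 3193 at 4 h. Of the 10 genes, 3 (Atp5if1, Atp5f1d and Atp5pd) had both 4 h arrays above the controls (background 13.4%) and 1 (Atp5f1a) had both below (background 27.5%), too few genes to set against the background.

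**Figure D2:**
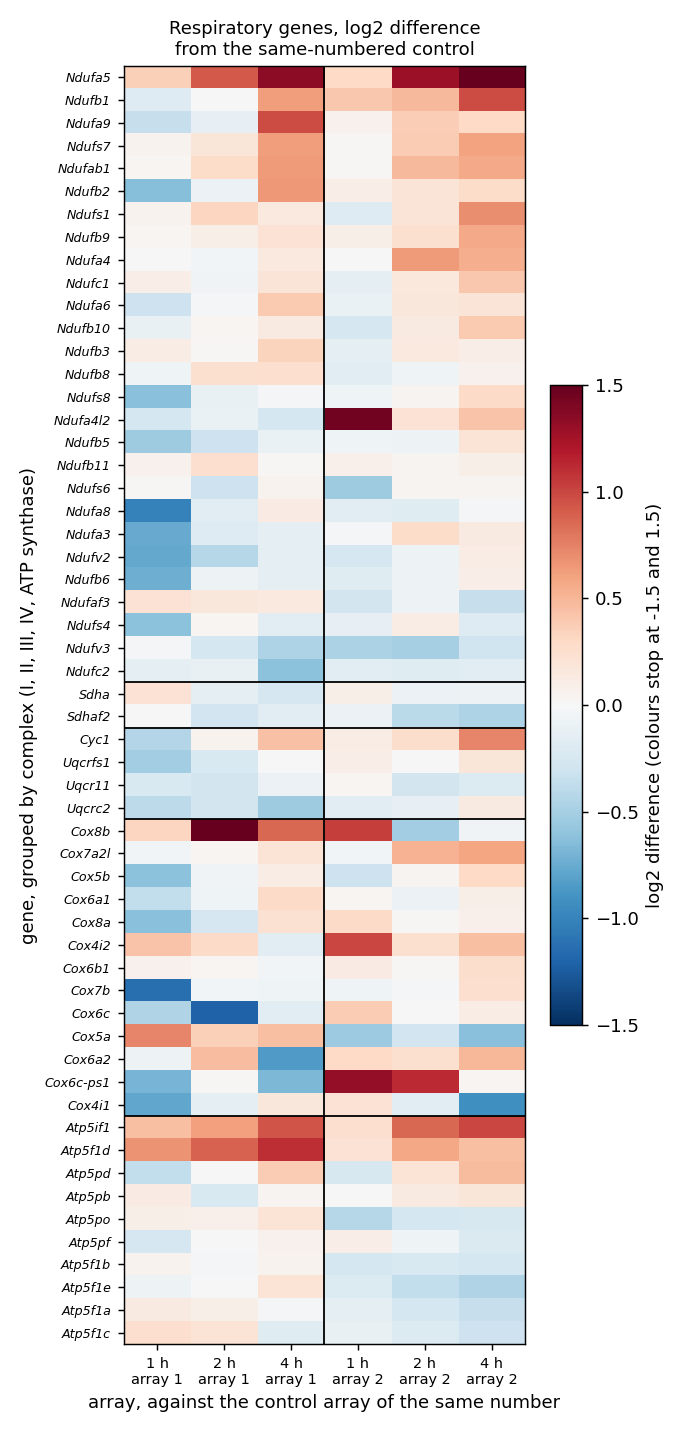
Log2 difference of each of the 56 members on each GSNO array from the control array of the same number, grouped by complex and ordered by the 4 h value. Red is higher and blue lower than control, and colours stop at 1.5 in both directions. Ndufa5 was 1.34 and 1.99 higher at 4 h on arrays 1 and 2, while Cox4i1 was 0.17 and -0.92.

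Over the 56 members the median log2 difference from control was -0.09 at 1 h, 0.04 at 2 h and 0.09 at 4 h, beside -0.05, -0.06 and -0.16 for all kept probe sets. At 4 h, 34 members lay above 0, or 60.7%, beside 35.4% of all kept probe sets. Both 4 h arrays lay above both controls for 20 members, or 35.7% (background 13.4%), and below both for 2 members, Atp5f1a and Ndufc2, or 3.57% (background 27.5%). The median at 4 h was 0.12 within the arrays numbered 1 and 0.13 within those numbered 2, beside -0.22 and -0.08 for all kept probe sets. These differences are small and moved with the arrays used and the scaling. Without control array 2 the median at 4 h was -0.02, for which the matching value over all kept probe sets is not given here. With arrays scaled to a common median, the median at 4 h was 0.31, beside 0.04 for all kept probe sets. On each array the median log2 signal of the members lay 2.18 to 2.83 above that of all kept probe sets, and the part of signal strength in the result was not tested.

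**Figure D3:**
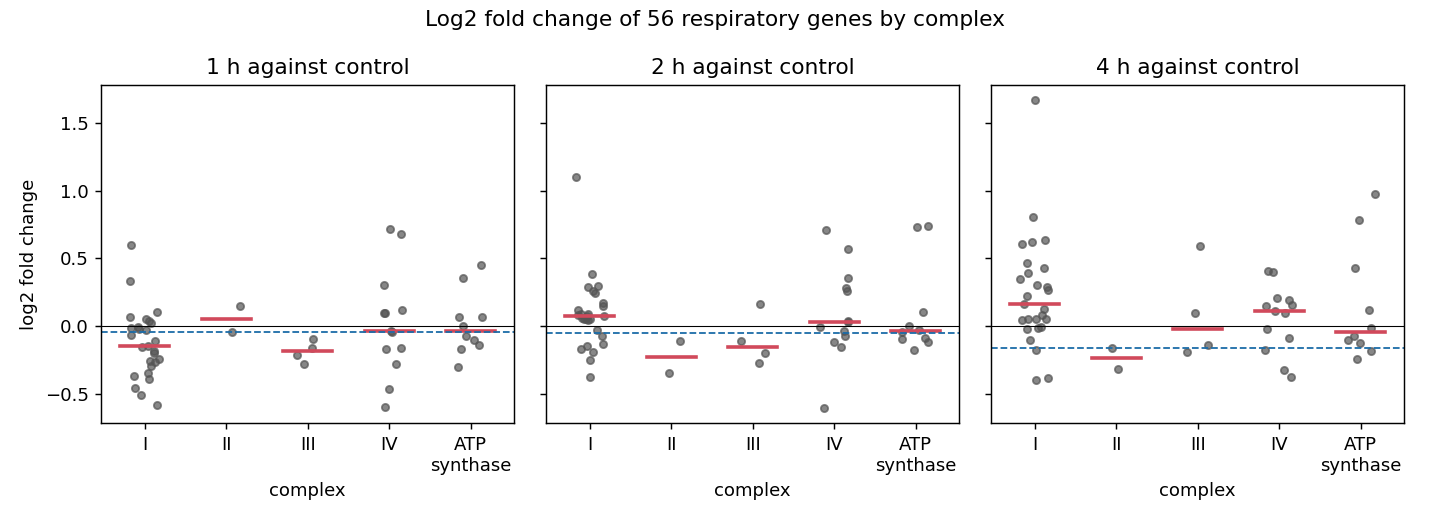
Log2 fold change against control at 1, 2 and 4 h for the 56 members by complex, 1 point per gene. Red bars are medians of the complex, and the dashed blue line is the median of all 5877 kept probe sets. At 4 h the complex I median was 0.16, that of all kept probe sets -0.16.

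**Figure D4:**
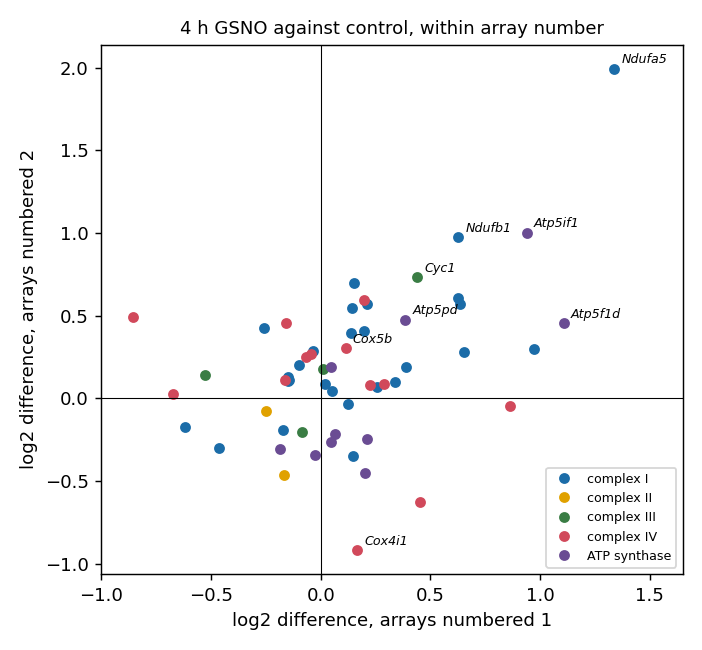
Log2 difference between 4 h GSNO and control within arrays numbered 1 (horizontal) and numbered 2 (vertical), 1 point per member, coloured by complex. Of the 56 members, 26 were above 0 and 8 below 0 within both numbers, and Ndufa5 was at 1.34 and 1.99.

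At 1 h, both arrays lay above both controls for 6 members (background 10.1%) and below both for 9 (background 13%). The 9 were Ndufa3, Ndufa6, Ndufa8, Ndufb5, Ndufv2, Ndufv3, Cox5b, Cox7b and Atp5pd. Several of these were lowest on 1 h array 1, the sole array from its chip lot: Cox7b gave 857 there and 1441 on 1 h array 2, against 1909 and 1502 in control. Ndufa8 gave 746 and 1223, against 1531 and 1364. The chip lot and 1 h of GSNO cannot be told apart among the arrays numbered 1. At 2 h, 8 members lay above both controls (background 12.9%) and 4 below (background 17%).

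Between exposure times, 4 h stood above 1 h for more members. Without a block, 0 of 56 members differed between 4 h and 1 h in limma (background 0.476%), and 11 had an unadjusted p below 0.05 (background 9.04%). With the array number as block, 4 members passed upwards and 0 downwards (background 2.65% and 2.45%): Ndufa5, Atp5pd, Cox5b and Cyc1. Ndufa5 was 1.34 higher on the log2 scale, with limma's adjusted p 0.00441 with the block and 0.0222 with the recorded experiment as block, and its call held in 8 of 8 fits that left out an array. No member was called between 2 h and 1 h (background 0.034%) or between 4 h and 2 h (background 0.544%) in the blocked fit. Without the block the count was 0 of 56 for both (background 0), also at an unadjusted p below 0.05 (background 2.79% and 5.62%).

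Atp5pd and Cox5b had a low 1 h group. Atp5pd, a subunit of the stator stalk, gave 2911 and 3369 in control, 2245 and 2849 at 1 h, 2928 and 3875 at 2 h, and 3808 and 4695 at 4 h. Cox5b, a zinc-binding subunit of complex IV, gave 2993 and 2697, then 1944 and 2165, 2875 and 2781, and 3240 and 3331. For both genes the 1 h arrays lay below both controls and the 4 h arrays above them. From 1 h to 4 h, Atp5pd rose by 0.74, Cox5b by 0.67 and Cyc1 by 0.75 on the log2 scale, with limma's blocked adjusted p of 0.0204, 0.0376 and 0.0427. Each of these calls held in 2 of 8 fits that left out an array, and each was lost without any single array of the 1 h, 2 h or 4 h groups. The highest adjusted p was 0.138 for Atp5pd, 0.251 for Cox5b and 0.319 for Cyc1. The other probe set of Cox5b was at -0.32 at 4 h against control, where the one used was at 0.21.

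Over all members the median difference from 1 h to 4 h was 0.31, beside -0.13 for all kept probe sets. It was 0.19 without 4 h array 1, 0.19 without 1 h array 2 and 0.20 with the mean over the probe sets of a gene. With arrays scaled to a common median it was 0.51, beside 0.06 for all kept probe sets. Both 4 h arrays lay above both 1 h arrays for 24 members (background 13.4%) and below for 5 (background 24.9%). In complex I the count was 17 of 27 above. From 2 h to 4 h, 18 members lay above (background 11.9%) and 0 below (background 19.9%), and from 1 h to 2 h 14 lay above (background 12.1%) and 4 below (background 12.7%).

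The 49 members called in no comparison ranged from -0.40 (Ndufc2) to 0.64 (Ndufa9) at 4 h, and 46 of them were within 0.5 of control. Their median SE was 0.29 without and 0.19 with the block. Of the 25 members with 2 or more kept probe sets, 11 had another probe set of opposite sign at 4 h.

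**Figure D5:**
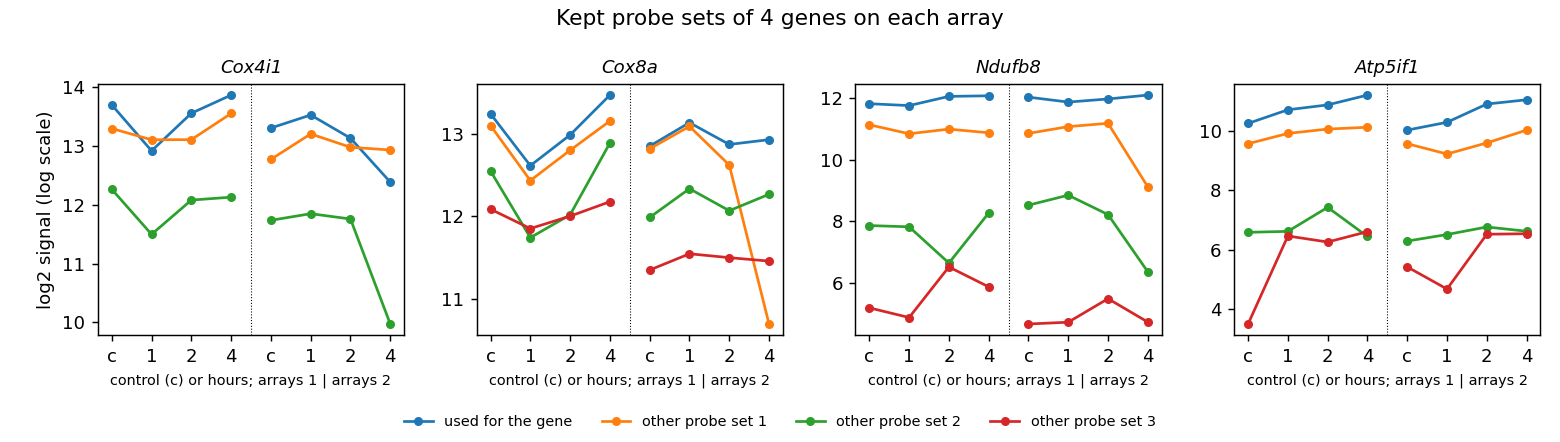
Log2 signal of every kept probe set of Cox4i1, Cox8a, Ndufb8 and Atp5if1 on each array, arrays numbered 1 left and numbered 2 right of the dotted line (c, control, then 1, 2 and 4 h). On 4 h array 2, 1 probe set each of Cox4i1, Cox8a and Ndufb8 fell far below its other arrays, as with Cox8a at 1653 there and at 5526 or more elsewhere.

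In the fit without a block, 0 genes of 6 lists of related mitochondrial genes were called at any time. With 3 to 14 kept genes a list and a background of 0.527% to 1.53%, these counts do not part the lists from other transcripts. The Krebs cycle and pyruvate dehydrogenase list, which supplies the electrons, had 14 kept genes and medians of -0.09, -0.18 and -0.13 at 1, 2 and 4 h, with 0 called in the blocked fit too. The 10 kept carriers of ATP, phosphate and protons, 6 kept ubiquinone genes and 7 kept regulators of respiratory transcription also had 0 called with the block. The background with the block was 1.34%, 3.16% and 7.93% at 1, 2 and 4 h, so counts of 0 in lists this small are near it. Of 3 subunits encoded by mitochondrial DNA (COX1, COX2 and COX3), 0 were called, and the median at 4 h was -0.14. COX2 gave 10971 and 5604 in control and 6606 and 6019 at 4 h, so its control arrays lay on either side of both 4 h arrays.

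Among 6 assembly factors, 1 was called, higher at 4 h with the array number as block (background in that direction 4.25%). It was Higd1a, a small inner membrane protein induced in hypoxia that associates with complex IV. It gave 740 and 805 in control, 891 and 921 at 1 h, 794 and 1149 at 2 h, and 1608 and 4017 at 4 h. Both 4 h arrays lay above all others, but they differed widely from each other. The log2 fold change at 4 h was 1.69, with limma's adjusted p 0.0993 without and 0.0048 with the block. Of the markers, Dcn of the fibroblast list fell at 4 h in both fits. At 1 h, 1 marker of that list was called lower in the blocked fit (background in that direction 0.204%). Myh11, the smooth muscle myosin heavy chain, fell by 0.60 on the log2 scale at 4 h in the blocked fit alone (limma's adjusted p 0.0434). The background for lower calls at 4 h was 0.579% without and 3.68% with the block. Whether any of these marker changes bears on the respiratory genes was not tested.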

How the data were processed

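The authors deposited 1 intensity value per probe set and array, on a linear scale and without detection calls, analysed with the array maker's software per the series design. Signals were used as deposited. The 59 control features were left out, an offset of 21.11 (the median of the arrays' 20th percentiles) was added before log2, and a probe set was kept at or above its array's 40th percentile on 2 or more arrays (5877 of 8740). The offset understates changes of weak probe sets.

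The tests were limma's (version 3.58.1, R 4.3.3), with all 4 groups in a single fit (4 residual degrees of freedom, 3 with the array number as block), eBayes with trend and two-sided p-values. The fit without block is the main one. The numbers pair the arrays, since same-numbered arrays of all 6 pairs of groups correlated above 0.1. The blocked value is therefore given where it changes a call. It is also given alone for some differences that neither fit called. The script was tested on simulated data.

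Genes were named from the platform annotation, and all 56 gene IDs were in the RefSeq table. Named are members called in either fit, the 2 brightest and the 2 with the largest 4 h difference per complex, fixed isoform genes and called genes of the pathway lists. Others were named after their values were seen. Members, lists and rules were chosen with earlier results of these data known. Alternatives were other scalings, offsets, filters, variance models, blocks, probe set rules and leaving out each array. No genome was used beyond the promoter table.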

Additional observations from a re-analysis of the deposited data

How the results depend on the processing

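No result changed direction while called. The counts of changed members without a block stayed at 0 for every comparison when each array was left out. The array number as replicate block gave 1 at 2 h, 4 at 4 h, 4 for 4 h against 1 h and 2 in the F test, and with the recorded experiment as block 1 in each of these. With each array scaled to a common median, 1 member, Ndufa5, was called at 4 h without a block (log2 fold change 1.88, limma's adjusted p 0.0484). The following counts were chosen after seeing the data. The matching shares of all kept probe sets are not given here, nor for the count with Ndufa5 above, so these counts have no background. In the blocked fit, scaling to a common median gave 0 at 2 h and 1 in the F test, and quantile normalization gave 2 at 2 h and 2 for 4 h against 1 h. Leaving out 1 array in the blocked fit gave 0 to 3 at 2 h, 2 to 4 at 4 h, 1 to 4 for 4 h against 1 h and 1 to 2 in the F test. The median over members was -0.218 to -0.0156 at 1 h, -0.0561 to 0.0943 at 2 h, -0.0178 to 0.202 at 4 h, 0.0786 to 0.217 from 1 h to 2 h, 0.0751 to 0.187 from 2 h to 4 h and 0.19 to 0.42 from 1 h to 4 h when each array was left out. Scaling to a common median gave -0.0096 at 2 h, 0.31 at 4 h, 0.0462 from 1 h to 2 h, 0.40 from 2 h to 4 h and 0.51 from 1 h to 4 h. That scaling moved the median of all kept probe sets at 4 h to 0.04. Quantile normalization gave 0.072 at 4 h, and the recorded experiment as block 0.22 at 4 h and 0.17 from 2 h to 4 h. The mean over the probe sets of a gene gave 0.0466 at 4 h, 0.0314 from 2 h to 4 h and 0.20 from 1 h to 4 h. The cause of these shifts was not tested. The precision is limited by 2 arrays a group.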

Other observations

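On 4 h array 2, 4 of 93 kept probe sets of the members had a signal more than 2-fold below every other array, while on 4 h array 1 there were 0 of 93. Over all kept probe sets the shares were 1.31% and 3.30%. The 4 were 1 probe set each of Cox4i1, Cox6c, Cox8a and Ndufb8. That of Cox8a gave 1653 there and 5526 to 9115 on the others, that of Ndufb8 gave 557 against 1834 to 2320, and that of Cox4i1 gave 1004 against 2891 to 4919. The probe sets used for Cox8a and Ndufb8 gave 7792 and 4372 on the same array, within or above the range of their other arrays. The probe set used for Cox4i1 gave 5356 there, below its 7744 to 14946 on the other arrays. That used for Cox6c gave 426, within its range of 191 to 520. The 3′ to 5′ ratio on that array was 1.11 for beta-actin and 1.01 for GAPDH.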
